A study of Homo sapiens with 6 samples.

Results

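The E2F and DP transcription factors were followed across 6 RNA-seq libraries of SaOS-2 cells (SaOS2 in the labels). This is an osteosarcoma line that the study describes as lacking both RB and p53. The members were the rows of the deposited table whose gene symbol is E2F1 to E2F8, TFDP1 or TFDP2, which gave 10 of 23228 gene names. All 10 passed the filter on low values (a mean normalized count of at least 10), so none of them was lost to it. Each library came from cells with a Tet-inducible p21 vector. In the p21 OFF group (n = 3) the cells were untreated, and in the p21 ON group (n = 3) they had received doxycycline at 1 μg/ml for 24 h. The study obtained the line as a gift, and whether it is a single clone is not given in the sources used here. Doxycycline was not analysed here in cells that lack the vector, so the drug and p21 cannot be told apart. The study calls the replicates biological, but the labels do not tie them to separate cultures.

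E2F proteins bind DNA as dimers with a DP partner and control genes for DNA replication and mitosis. E2F1, E2F2 and E2F3 are known as activators and are held in check by RB. E2F4 and E2F5 bind mainly the pocket proteins p130 and p107 and act largely as repressors, and E2F4 or E2F5 with DP, p130 or p107 and the MuvB core forms the DREAM complex. E2F6 lacks the pocket protein binding region and works with Polycomb proteins, while the atypical E2F7 and E2F8 have a pair of DNA-binding domains and repress without DP. TFDP1 and TFDP2 encode the DP partners. p21, an inhibitor of cyclin-dependent kinases, keeps pocket proteins in their unphosphorylated, E2F-binding form. The question put to these libraries was how transcripts of the activators and of the repressors differed between p21 ON and p21 OFF cells.

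Several E2F genes are themselves E2F targets, and their promoters are shown for that reason. For each gene tested, the 300 bases from 250 before to 49 after the start of the canonical transcript (GENCODE release 44 on GRCh37, the build of hg19) were searched on both strands for an E2F motif, spelled TTTCCCGC, TTTCGCGC, TTTGCCGC or TTTGGCGC, and for a CHR, spelled TTTGAA or TTCGAA. Of the 10 members, 6 held an E2F motif, among them E2F1, E2F2, E2F3, E2F5 and TFDP1, where 5.30% of 11293 promoters of tested genes held one. A CHR was found in 1 member, E2F3, and in 10.4% of all these promoters. No match was found in E2F4, E2F6, E2F7 or TFDP2, which says only that these letters are not in this window. The promoter below belongs to E2F1, the member called higher with p21 ON, with the motif matches in capitals. It lies at chr20:32274142-32274441 on the minus strand of GRCh37 and is written 5′ to 3′ in the direction of transcription.
E2F1: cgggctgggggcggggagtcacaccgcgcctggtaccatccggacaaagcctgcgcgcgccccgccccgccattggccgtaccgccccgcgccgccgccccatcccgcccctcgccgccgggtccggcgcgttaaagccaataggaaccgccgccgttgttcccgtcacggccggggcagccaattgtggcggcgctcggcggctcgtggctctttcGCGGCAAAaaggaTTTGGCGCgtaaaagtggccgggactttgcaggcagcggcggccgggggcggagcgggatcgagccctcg

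The E2F1 promoter carried 2 matches close to the start, at -33 and -20 relative to the first base of the transcript, on opposite strands. The matches of E2F2, E2F3 and TFDP1, members without a call, are given as 48-base stretches to show the sites with the bases around them. They come from chr1:23857740-23857787 (minus strand), chr6:20402037-20402084 (plus strand) and chr13:114238928-114238975 (plus strand) of GRCh37, and in the E2F3 stretch the first capitals are the CHR.
E2F2: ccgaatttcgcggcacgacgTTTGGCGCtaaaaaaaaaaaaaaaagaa
E2F3: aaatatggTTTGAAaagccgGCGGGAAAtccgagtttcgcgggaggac
TFDP1: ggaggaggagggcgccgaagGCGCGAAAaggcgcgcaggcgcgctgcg

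The libraries held 12795490 to 21975045 reads on genes, recovered from the deposited normalized counts (read counts divided by each library's DESeq2 size factor). Replicates 2 and 3 of p21 OFF, at 20914151 and 21975045, held more than any p21 ON library (12918390 to 16630552). Induction was checked first. CDKN1A, the p21 gene, had 1257, 1187 and 1355 normalized counts with p21 OFF and 40470, 43863 and 46739 with p21 ON, a change of 5.11 on the log2 scale (adjusted p = 1.12e-19 by limma). RB1 (chromosome 13, 48877880 to 49173572) still gave 555 ± 66.8 normalized counts in p21 OFF and 654 ± 39.7 in p21 ON cells (n = 3 per group, SD). Counts per gene do not show whether the RB1 transcript is intact or whether any RB protein is made. Of the osteoblast markers, ALPL, SPARC, SP7, RUNX2 and COL1A1 were at 3403 or more normalized counts in both group means, while COL1A2, BGLAP and SPP1 were at or near 0. IBSP, the bone sialoprotein gene, was lower in p21 ON cells (99.0 ± 3.20 against 129 ± 8.66 normalized counts, n = 3 per group, SD, adjusted p = 0.0264 by limma), a call that was lost without any 1 of the p21 ON libraries. Of the markers of other cell types, PTPRC, CD3E, PECAM1 and ALB had group means of at most 13.5 normalized counts, and EPCAM had 330 ± 38.9 in p21 OFF and 313 ± 18.6 in p21 ON cells (n = 3 per group, SD).

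After p21 induction the activator E2F1 was higher, the atypical repressor E2F8 was lower, and the other 8 members passed no test. E2F1 was 1.17 times and E2F8 0.679 times its p21 OFF level. E2F4, E2F5 and E2F6 lay below their p21 OFF values in every p21 ON library but missed the threshold. E2F2, E2F3, E2F7, TFDP1 and TFDP2 overlapped between the groups. By limma on log2(normalized count + 1) with Benjamini-Hochberg adjustment over 13255 genes, 1 of 10 members was called higher, where 10.5% of all genes tested were, and 1 was called lower, where 12.7% were. The members' shares were therefore near those of all genes. Among all genes 1393 were called higher and 1681 lower, and scaling by library size alone turned this split to 2034 and 1194, with the same 1 and 1 among the members. Fold changes on this scale understate the change of weakly expressed genes, but only slightly for E2F5. Its log2 fold change was -0.345, and it was -0.348 with a pseudocount of 0.1.

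**Figure D1:**
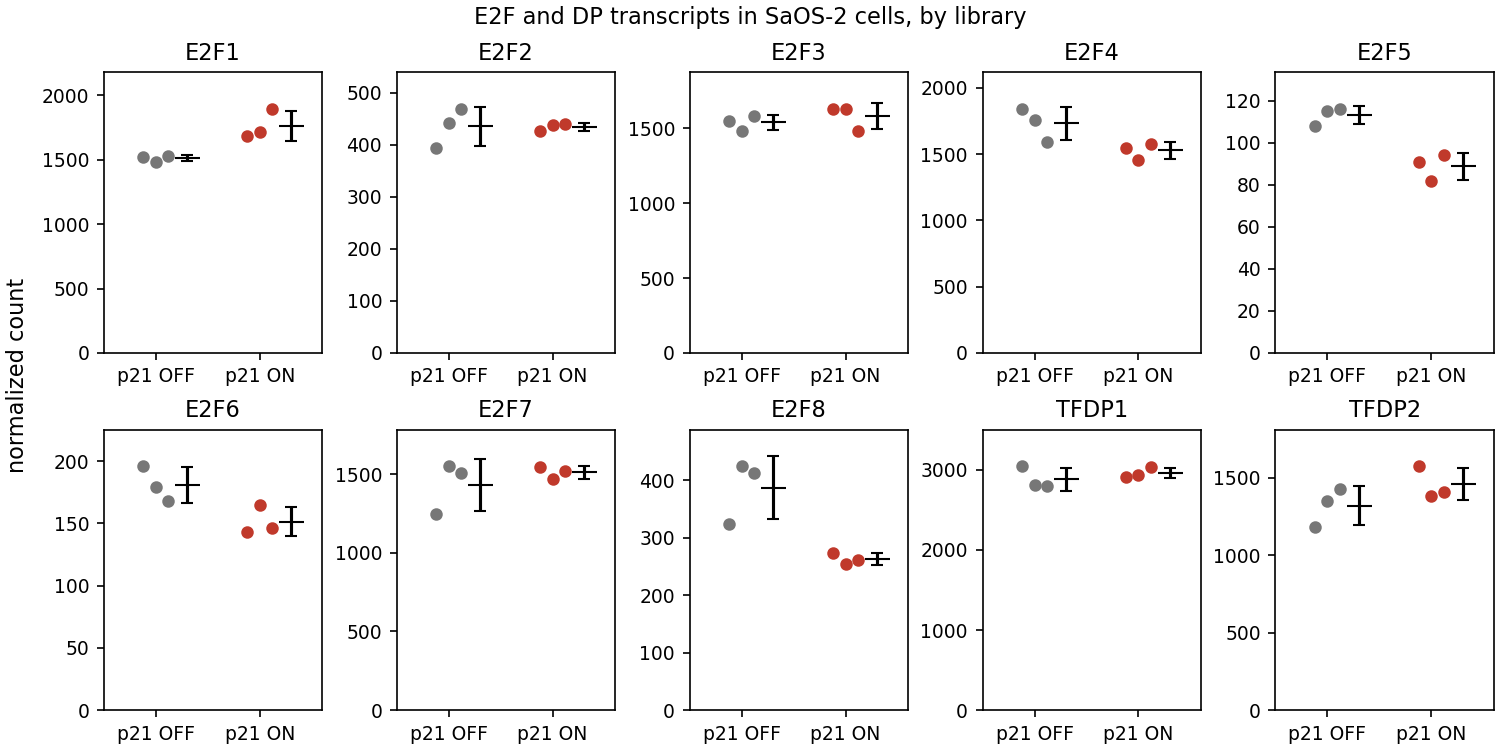
Normalized counts of the 10 members in each library, with p21 OFF libraries in grey and p21 ON libraries in red (n = 3 each); the black mark beside each group is the mean with its SD, and each panel has its own axis from 0. All p21 ON points lie above all p21 OFF points for E2F1, and below them for E2F4, E2F5, E2F6 and E2F8.

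E2F1, the best known activator, is a minus-strand gene of chromosome 20, from 32263283 to 32274191 on GRCh37. It had 1518, 1485 and 1530 normalized counts with p21 OFF, and with p21 ON it had 1683, 1714 and 1896. The p21 OFF values were close together, and the highest p21 ON value, in replicate 3, stood apart from the other two. The means were 1511 ± 23.4 and 1764 ± 115 (n = 3 per group, SD), and the log2 fold change was 0.22 (95% interval 0.09 to 0.36, adjusted p = 0.0181 by limma). Without p21 ON replicate 3 the log2 fold change was 0.17 (adjusted p = 0.101 by limma) and without p21 OFF replicate 2 it was 0.21 (adjusted p = 0.0615), so E2F1 was not called in either fit. Over all alternatives its adjusted p ran from 0.00577 to 0.117, the last with no filter. In RNA of whole cultures, a higher level in each cell and more cells that express a gene cannot be told apart, and this holds for each value here.

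E2F2 and E2F3, the other activators, did not pass the test. E2F2 (chromosome 1, 23832930 to 23857725) had 394, 443 and 469 normalized counts with p21 OFF and 426, 439 and 440 with p21 ON. The p21 ON values all fell inside the p21 OFF range. Its log2 fold change was 0.0014, with a 95% interval from -0.17 to 0.17, so a change of E2F2 as large as that of E2F8 lay outside the interval. E2F3 (chromosome 6, 20402110 to 20493945) ran from 1483 to 1585 with p21 OFF and from 1480 to 1630 with p21 ON. Its log2 fold change was 0.04, with an interval from -0.10 to 0.17.

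E2F4 and E2F5 encode the E2F subunits of DREAM. E2F4 (chromosome 16, 67226058 to 67232821) had 1841, 1758 and 1594 normalized counts with p21 OFF, against 1547, 1458 and 1576 with p21 ON. The groups did not overlap, but p21 OFF replicate 3 and p21 ON replicate 3 lay next to each other. The log2 fold change was -0.18 (95% interval -0.32 to -0.04, unadjusted p = 0.0158 and adjusted p = 0.0617 by limma). Without p21 OFF replicate 3 it was -0.24 and E2F4 was called lower (adjusted p = 0.0235 by limma), where the adjusted p over all alternatives ran from 0.0235 to 0.245.

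E2F5 (chromosome 8, 86089389 to 86129387) was one of the weakest members. It had 108, 115 and 116 normalized counts with p21 OFF and 90.8, 81.6 and 94.1 with p21 ON, from 67 to 157 reads per library. Every p21 ON value was below every p21 OFF value. The log2 fold change was -0.34 (95% interval -0.61 to -0.08, adjusted p = 0.0535 by limma), and over all alternatives the adjusted p stayed between 0.0519 and 0.167. Exons of E2F5 overlap those of RBIS on the opposite strand by up to 578 bases. The libraries were stranded, and the strand setting of the counting is not given in the sources used here.

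E2F6, the member that joins the Polycomb complex PRC1.6, lies on chromosome 2, between 11584501 and 11606303. It had 196, 179 and 168 normalized counts with p21 OFF and 143, 164 and 146 with p21 ON. The groups were separated by a small gap, from 164 to 168. The log2 fold change was -0.26 (95% interval -0.48 to -0.03, adjusted p = 0.0965 by limma).

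E2F7 and E2F8, the atypical repressors, gave unlike values. E2F8 (chromosome 11, 19245610 to 19263167) had 324, 424 and 412 normalized counts with p21 OFF and only 274, 253 and 260 with p21 ON. The p21 ON values were tightly grouped and all below the p21 OFF values, of which replicate 1 was the lowest. E2F8 fell by 32.1%, from 387 ± 54.6 to 262 ± 10.2 (n = 3 per group, SD), a change of -0.55 on the log2 scale (95% interval -0.76 to -0.34, adjusted p = 0.000917 by limma). It kept its call without any 1 library, with log2 fold changes from -0.67 to -0.48, and lost it only when no filter was applied (adjusted p = 0.104 by limma, where the adjusted p over all alternatives ran from 3.89e-07 to 0.104). An exon of E2F8 overlaps one of CSRP3-AS1 on the opposite strand by 7 bases.

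E2F7 (chromosome 12, 77415028 to 77459349) had 1245, 1551 and 1506 normalized counts with p21 OFF and 1547, 1467 and 1520 with p21 ON. The p21 OFF replicate 1 stood below the other five libraries, which overlapped. The log2 fold change was 0.08 (95% interval -0.08 to 0.24, adjusted p = 0.459 by limma), and it was -0.016 without p21 OFF replicate 1. The same library was the lowest p21 OFF library for E2F2, E2F5, E2F7, E2F8 and TFDP2 and the highest for E2F4, E2F6 and TFDP1. It was the shallowest of the 6, with 12795490 reads, and p21 ON replicate 2 was close to it with 12918390. The part of depth in these orders was not tested. The ratio of E2F7 to E2F8 reads within a library, which needs no scaling between libraries, was 3.66 to 3.84 in the p21 OFF libraries and 5.66 to 5.84 in the p21 ON libraries. This pair was chosen after the values were seen, and no test was made of it.

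The DP partners did not pass the test. TFDP1 (chromosome 13, 114239036 to 114295788) ran from 2795 to 3047 normalized counts with p21 OFF and from 2915 to 3033 with p21 ON, inside the p21 OFF range. Its log2 fold change was 0.04 (95% interval -0.09 to 0.16). TFDP2 (chromosome 3, 141663270 to 141868386) had 1182, 1349 and 1428 with p21 OFF and 1575, 1385 and 1410 with p21 ON. These overlapped, and the log2 fold change was 0.14 (95% interval -0.015 to 0.30, adjusted p = 0.176 by limma).

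**Figure D2:**
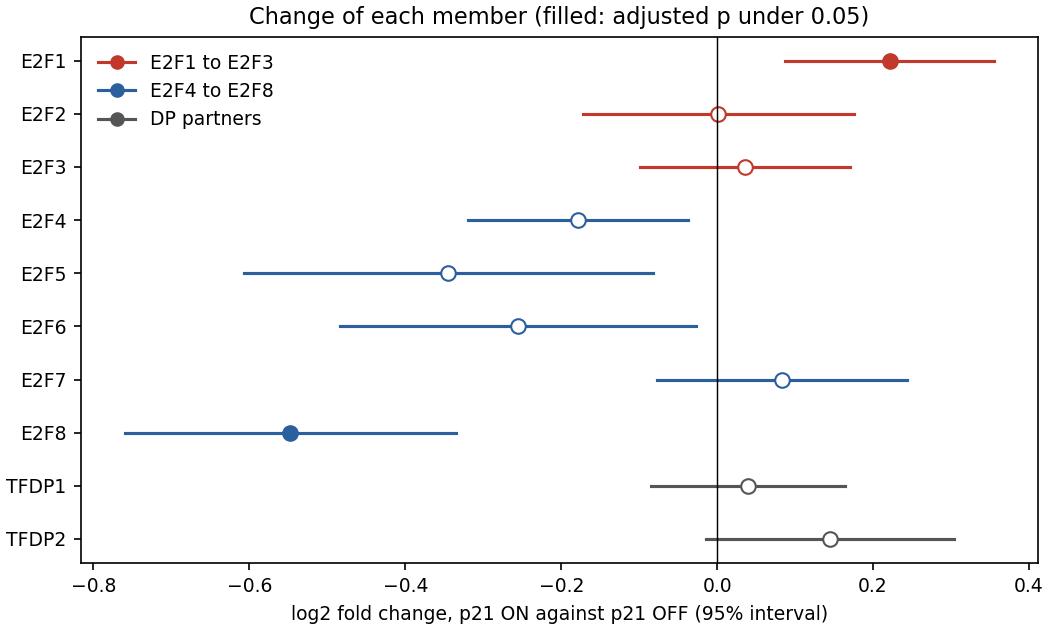
Log2 fold change of each member between p21 ON and p21 OFF (horizontal axis) with its 95% interval from limma; activators are red, repressors blue and DP partners grey, and filled points have an adjusted p under 0.05. E2F1 (0.22) and E2F8 (-0.55) are filled, the intervals of E2F4, E2F5 and E2F6 also miss 0 before adjustment, and those of the other 5 members cross 0.

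Set side by side, the 3 activators had a median log2 fold change of 0.04 and the 5 repressors a median of -0.26, where the median of all genes tested was 0.0056. The DP partners had a median of 0.09. All p21 ON libraries lay above all p21 OFF libraries for 1 of 3 activators and 0 of 5 repressors, where 19.1% of all genes tested did. They lay below for 4 of 5 repressors and 0 of 3 activators, where 21.3% of all genes did. E2F7 was the repressor whose groups overlapped, and of the 5 only E2F8 was called. With 3 libraries against 3, the smallest p of an exact two-sided permutation test for a single gene is 0.1, which E2F1, E2F4, E2F5, E2F6 and E2F8 all reached.

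Within each library the mean log2 value of the activators minus that of the repressors was 1.16, 1.06 and 1.20 with p21 OFF and 1.45, 1.51 and 1.47 with p21 ON. The groups did not overlap, and the difference between them was 0.34 on the log2 scale. It ran from 0.30 to 0.36 when each library was left out in turn. No test was made of it, since the members were chosen with results of these data known.

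For levels between genes, normalized counts were divided by the length of the canonical transcript. With p21 OFF, TFDP1 was highest at 1092 ± 53.8 normalized counts per kilobase, followed by E2F4 at 820 ± 59.7, E2F1 at 562 ± 8.70, E2F3 at 306 ± 10.3 and E2F7 at 250 ± 28.9 (n = 3 per group, SD). TFDP2, E2F8 and E2F2 followed at 134, 104 and 83.8, and E2F5 and E2F6 were lowest at 57.5 and 56.0. The neighbours E2F8 and E2F2, and E2F5 and E2F6, overlapped between libraries, and the other neighbours did not. E2F4 was therefore the most abundant E2F transcript and E2F1 the second in p21 OFF cells. With lengths of all exons in place of the canonical transcript, E2F1 ranked above E2F4.

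With p21 ON, E2F4 was at 724 ± 28.9 and E2F1 at 656 ± 42.6 normalized counts per kilobase (n = 3 per group, SD), and these neighbours overlapped between libraries. E2F8 dropped below E2F2, at 70.8 ± 2.76 against 83.7 ± 1.48, with no overlap. E2F5 and E2F6 remained lowest and overlapped. In reads, the ratio of E2F1 to E2F4 within a library was 0.825, 0.845 and 0.960 with p21 OFF and 1.09, 1.18 and 1.20 with p21 ON. The ranges did not overlap, and this pair too was chosen after the values were seen.

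Summed per kilobase, the activators made up 42.5 ± 1.42% of all E2F transcripts with p21 OFF and 47.8 ± 0.833% with p21 ON (n = 3 per group, SD). The single libraries gave 42.3, 41.2 and 43.98% with p21 OFF and 46.9, 48.5 and 48.0% with p21 ON, with no overlap. The activator sum went from 951 ± 21.2 to 1053 ± 26.9 normalized counts per kilobase and the repressor sum from 1289 ± 46.2 to 1151 ± 36.8 (n = 3 per group, SD). E2F1 alone made up 25.1 ± 0.659% and 29.7 ± 1.38%, and E2F4 36.6 ± 2.41% and 32.8 ± 0.653%. The share of E2F7 and E2F8 together was 15.8 ± 1.94% and 15.2 ± 0.403%, which overlapped. These shares depend on the transcript lengths used, and so does whether activators or repressors are the larger part. E2F4, the largest repressor, was taken at 2110 bases, where all its exons cover 3596.

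**Figure D3:**
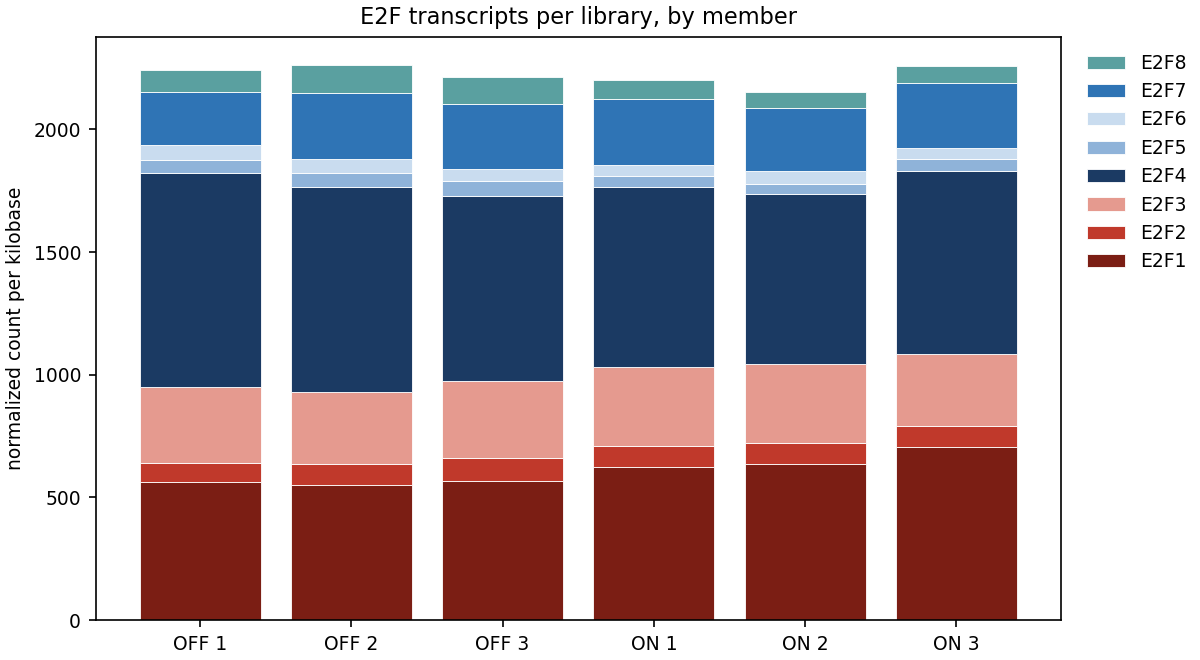
Normalized counts per kilobase of canonical transcript (vertical axis, from 0) of the 8 E2F genes, stacked in each of the 6 libraries; red shades are E2F1 to E2F3 and blue and green shades are E2F4 to E2F8. The red part is 41.2 to 43.98% of the bar in the p21 OFF libraries and 46.9 to 48.5% in the p21 ON libraries.

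The genes whose values ran most like those of the called members were sought by the Euclidean distance between centred log2 values over the 6 libraries. For E2F1 the nearest were SIPA1, at 0.038, and ABHD14B, at 0.039. SIPA1 was called higher, at 0.24 on the log2 scale (adjusted p = 0.0256 by limma), and ABHD14B had 0.22 (adjusted p = 0.0522 by limma). For E2F8 they were TMEM194A, at 0.15, and ATAD5, at 0.16, with log2 fold changes of -0.53 and -0.62, both called lower. Fold changes close to those of the member follow from this way of choosing the genes and are no separate result. ATAD5 helps to unload PCNA from replicated DNA. TMEM194A is an older name of a gene for an inner nuclear membrane protein.

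The pocket proteins and the MuvB core are the partners through which E2F4 and E2F5 repress. Of 8 genes, 0 were called higher and 3 lower, against 10.5% and 12.7% of all genes tested. Their median log2 fold change was -0.23. LIN9, a MuvB subunit, fell from 455 ± 8.02 to 213 ± 10.0 normalized counts (n = 3 per group, SD), a log2 fold change of -1.09. LIN54, the MuvB subunit that binds DNA, fell from 634 ± 52.5 to 425 ± 9.42, and RBL2, the gene of p130, from 1728 ± 66.3 to 1379 ± 70.4, a change of -0.33 on the log2 scale (adjusted p = 0.00148 by limma). RBL1, the gene of p107, had 256 ± 26.9 and 219 ± 10.3 normalized counts (n = 3 per group, SD, adjusted p = 0.116 by limma). RB1 stood at 0.24 on the log2 scale (adjusted p = 0.0516 by limma) and was called higher without p21 OFF replicate 2, with library size scaling and with a filter at a mean of 100, which made 1 of 8 higher in each. RBL2 overlaps exons of AKTIP on the opposite strand by up to 609 bases.

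Cyclins, kinases, their inhibitors and ubiquitin ligase subunits set the activity of pocket proteins and the turnover of E2F proteins. Of 16 genes, 15 were tested, and 5 were called higher and 6 lower, against 10.5% and 12.7% of all genes tested. Their median log2 fold change was -0.13. The cyclin E genes rose: CCNE2 from 832 ± 98.8 to 1455 ± 107 and CCNE1 from 253 ± 12.4 to 421 ± 39.2 normalized counts (n = 3 per group, SD). CCND1, the gene of cyclin D1, rose from 101 ± 10.3 to 169 ± 9.15. CCNA2, the gene of cyclin A, fell from 1505 ± 82.8 to 543 ± 44.9, a log2 fold change of -1.47. The kinase inhibitors CDKN2C and CDKN2D fell by 0.50 and 0.67 on the log2 scale.

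Of 37 E2F target genes for replication and related steps, 12 were called higher and 17 lower, against 10.5% and 12.7% of all genes tested. Their median log2 fold change was -0.17. The helicase subunits MCM6 and MCM3 rose by 0.47 and 0.39 on the log2 scale, and the mismatch repair gene MSH6 rose by 0.36. RRM2, the small subunit of ribonucleotide reductase, fell from 4232 ± 19.4 to 1964 ± 113 normalized counts (n = 3 per group, SD), TK1, the thymidine kinase gene, from 2783 ± 128 to 1222 ± 93.4, and MYBL2, the gene of B-MYB, from 3761 ± 45.8 to 1881 ± 31.4. The targets stood on both sides of 0, with 16 positive and 21 negative log2 fold changes. All genes tested did so too, with 6777 and 6478.

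Among 8 apoptosis genes linked to E2F1, 2 were called higher and 0 lower, against 10.5% and 12.7% of all genes tested. Their median log2 fold change was 0.10. At an unadjusted p under 0.05 none of the 8 was lower either. TP73, the gene of p73 and a known E2F1 target, had 122.8 ± 9.50 normalized counts with p21 OFF and 286 ± 26.3 with p21 ON (n = 3 per group, SD), and it rose by 1.21 on the log2 scale (adjusted p = 1.39e-07 by limma). BCL2L11, the gene of BIM, rose by 0.23 (adjusted p = 0.0478 by limma). The count was 1 rather than 2 when any 1 of p21 OFF replicates 1 and 2 and the 3 p21 ON libraries was left out, and also with DESeq2, with no filter and with a threshold of 0.01. The other 6 genes did not pass the test.

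Of the 10 PRC1.6 partners of E2F6, 1 was called higher and 1 lower, near the 10.5% and 12.7% of all genes tested, with a list median of -0.0092 on the log2 scale. MGA, the scaffold of that complex, went from 1827 ± 243 to 2197 ± 169 normalized counts (n = 3 per group, SD), a change of 0.27 on the log2 scale (adjusted p = 0.0271 by limma). CBX3, the gene of HP1 gamma, went from 1736 ± 157 to 1459 ± 73.8, a change of -0.25 on the log2 scale (adjusted p = 0.0176 by limma). Without p21 ON replicate 1 or 3 neither gene was called, and without p21 OFF replicate 1 MGA was not. Over the 5 lists, 20 of 78 genes tested were called higher, where 10.5% of all genes tested were. Of the same 78, 27 were called lower, where 12.7% of all genes were. The lists were chosen with earlier results of these data known, so no test was made of these shares.

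**Figure D4:**
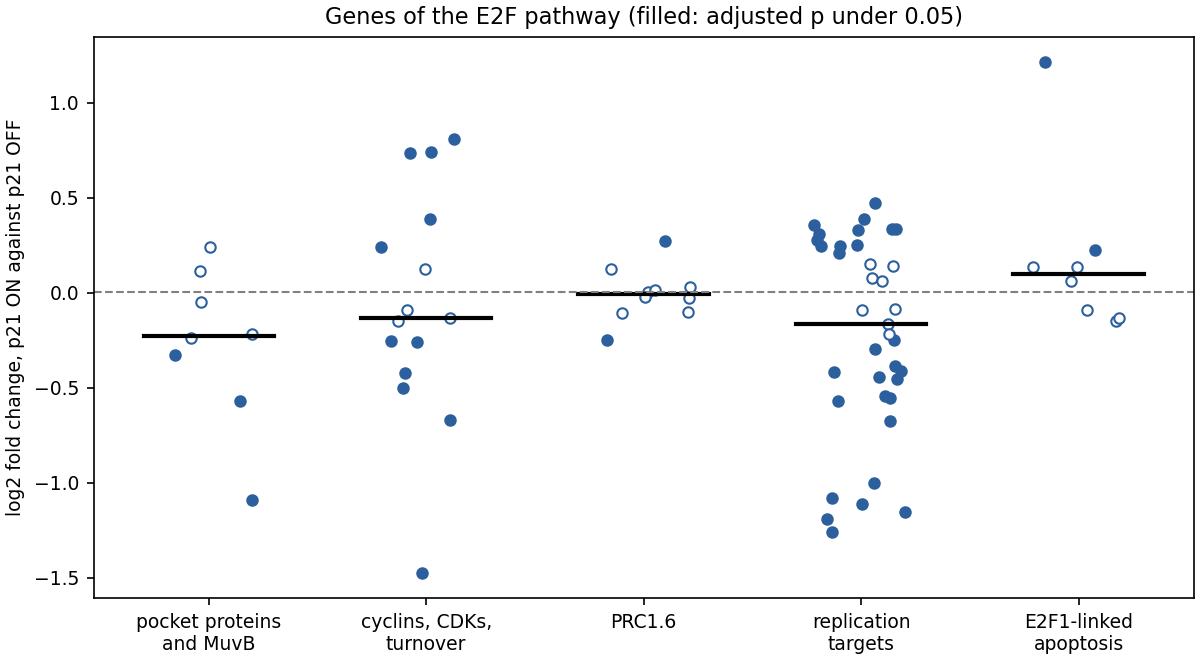
Log2 fold change between p21 ON and p21 OFF (vertical axis) of each tested gene in 5 lists of the E2F pathway; filled points have an adjusted p under 0.05 by limma, black bars are list medians and the dashed line is the median of all genes tested. The replication targets spread from -1.26 to 0.47, and TP73 is the highest point at 1.21.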

How the data were processed

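Polyadenylated RNA was measured in 6 libraries, 3 per group by the sample titles. The authors made stranded libraries, mapped single-end reads to hg19 with STAR, counted them per gene with HTSeq and divided the counts by DESeq2 size factors, so the deposited values are a signal of normalized counts for 23228 gene names. Tool versions, the gene annotation and the strand setting are not given in the sources used here. In each library 100% of values were whole multiples of 1 step (tolerance 0.01 reads), which returned 12795490 to 21975045 reads.

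limma 3.58.1 (trend) in R 4.3.3 was run on log2(normalized count + 1), without covariates, over the 13255 genes whose mean reached 10. The p-values were adjusted by Benjamini-Hochberg, and genes were called under 0.05. The method was tested on simulated data, but only with planted changes larger than that of any member. Intervals are unadjusted 95% intervals from the limma fit to the 6 libraries. Each limma p-value sets the difference between the groups against the spread between these libraries, with variances that limma shares over genes. Alternatives were edgeR 4.0.16 and DESeq2 1.42.0 on recovered reads, library size and TMM scaling, pseudocounts of 0.1 and 10, no filter and a mean of at least 100, a threshold of 0.01, a replicate block and each library left out. Members and lists were chosen with earlier results of these data known. Named genes were the members, CDKN1A, the pocket protein genes, the 3 lowest adjusted p-values per direction and list, and the 2 nearest profiles of each called member; all genes of the lists and the marker lists matched the table by symbol. Markers that are named without a call were chosen after their values were seen. Positions and promoters are from GENCODE release 44 on GRCh37. Values of 2 genes that the rule or marker lists hold, and 1 promoter, are not reported here.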

Additional observations from a re-analysis of the deposited data

How the results depend on the processing

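The difference between activators and repressors kept its direction under all alternatives, at 0.30 to 0.36, and CDKN1A kept its call. The filters, the threshold and the replicate block cannot move this difference, and scaling between libraries nearly cancels in it. Its direction was therefore open to change only with the other tools, the pseudocounts and the left-out libraries. Members called higher went from 1 to 0 with a threshold of 0.01 and, like those called lower, from 1 to 0 without a filter; there 254 genes were called higher and 503 lower, against 1393 and 1681. With each library left out, 0 to 1 members were called higher and 1 to 2 lower; the second was E2F4, without p21 OFF replicate 3. E2F2, never called, changed sign with edgeR (-0.0094) and DESeq2 (-0.0031) and ran from -0.068 to 0.057 over left-out libraries, and E2F7 ran from -0.016 to 0.14. A threshold of 0.01 left 616 genes higher and 882 lower, leaving out p21 ON replicate 1 gave 692 and 888, and leaving out p21 ON replicate 3 gave 739 and 1076. Genes called in the 5 lists numbered 33 to 49 over the alternatives, against 47. The cause of these changes was not tested. Same-numbered libraries did not deviate together over the genes tested (correlations -0.057, -0.025 and -0.048). Whether equal numbers stand for a shared culture or day cannot be told from this. With the replicate block E2F1 (adjusted p = 0.0366) and E2F8 (adjusted p = 5.59e-05 from limma) were the only members called, 45 genes of the lists were, and 1 rather than 2 of the apoptosis genes was. Depth limits E2F5 and E2F6 most, with 67 to 229 reads per library.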
